A study of Mus musculus with 6 samples.

Results

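Oncostatin M (Osm), leukaemia inhibitory factor (Lif) and 4 receptor chains, Osmr, Lifr, Il6st and Il6ra, were followed by RNA-seq in cultured primary microglia of the mouse. Microglia are the macrophages that reside in the brain. The 6 genes were taken by symbol from the 24411 genes counted in each library, and all 6 were among the 10124 genes with enough reads to be tested. They were chosen because Osm was known to be lower with LPS in these same libraries while most cytokine genes were higher, so their own values in that comparison are descriptions and carry no test. The tested libraries came from microglia given FTY720 (the drug fingolimod, whose phosphorylated form binds receptors for sphingosine-1-phosphate) at 1 µM together with lipopolysaccharide (LPS, a bacterial surface molecule sensed by Toll-like receptor 4) at 10 ng/ml for 4 h, in 3 libraries. They were set against microglia given FTY720 alone at 1 µM for 4 h, also in 3 libraries. Both groups carried FTY720, and no group without it was analysed here.

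The cells came from whole brains of 12 pooled ICR mice aged 3 days. Mixed glia were cultured for weeks, the loosely attached microglia were detached by shaking, and over 92% of the cells obtained carried CD11b. The labels describe each replicate as an RNA sample of its own. It is not stated whether they stem from separate pools or cultures, so every p-value measures the spread between these RNA samples. Per library, 2431775 to 2800738 reads fell on genes with FTY720 and LPS and 2729532 to 3454647 with FTY720 alone. Ribosomal RNA-like genes took 38.2% to 44.9% and 28.8% to 59.0% of those reads. FTY720 replicate 3 stood apart, with the lowest of these shares and a scaling factor of 1.43. A count of 0 allows up to 3 reads, or 0.704 to 1.50 CPM (read counts scaled to a common number of gene reads per library, with TMM factors), and intervals cover counting error only.

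The 6 genes belong to the gp130 family, named after the signalling chain that Il6st encodes. Oncostatin M and LIF are secreted cytokines. LIF binds the LIF receptor (Lifr), which pairs with gp130, and mouse oncostatin M acts mainly through the oncostatin M receptor (Osmr) paired with gp130. Interleukin-6 binds its own receptor chain (Il6ra), which then recruits gp130. The receptor chains hold Janus kinases that activate STAT3 and other STAT proteins, and the SHP2 and MAP kinase branch runs in parallel. In the brain, microglia and infiltrating myeloid cells are a known source of oncostatin M, while astrocytes carry its receptor.

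Osm and Lif are neighbours on chromosome 11, and Osmr and Lifr lie near each other on chromosome 15. In GENCODE M21 on GRCm38, Osm spans chr11:4236420-4241026 on the plus strand, and Lif spans chr11:4257557-4272514 on the same strand. Their spans are 16530 bp apart with 0 annotated genes between them. Osmr (chr15:6813577-6874969, minus strand) and Lifr (chr15:7090614-7197489, plus strand) lie 215644 bp apart, with 0 protein-coding genes between them. Il6st is at chr13:112464070-112510086 on the plus strand and Il6ra at chr3:89864059-89913196 on the minus strand. The 250 bases before the RefSeq start on GRCm38.p6 are shown for Lif (chr11:4257318-4257567, plus strand) and for Il6st (chr13:112463820-112464069, plus strand), the ligand and the shared chain whose levels were higher with LPS. Capitals mark a match to the AP-1 motif.
Lif: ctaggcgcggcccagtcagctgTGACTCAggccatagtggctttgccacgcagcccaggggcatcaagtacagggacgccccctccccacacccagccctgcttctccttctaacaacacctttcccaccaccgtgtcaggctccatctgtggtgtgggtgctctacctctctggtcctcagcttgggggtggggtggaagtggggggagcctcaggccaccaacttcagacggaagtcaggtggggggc
Il6st: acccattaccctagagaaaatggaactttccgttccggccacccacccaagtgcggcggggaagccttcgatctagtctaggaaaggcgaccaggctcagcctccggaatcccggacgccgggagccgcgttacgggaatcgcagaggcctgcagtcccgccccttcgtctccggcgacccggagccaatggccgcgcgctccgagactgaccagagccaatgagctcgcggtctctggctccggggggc
These windows and those of Osmr, Lifr and Il6ra were searched on both strands for a STAT motif (TTCNNNGAA), an AP-1 motif (TGANTCA) and the kappaB motif with A or T at its middle position, and Osm was not searched. The match found was AP-1, at 228 to 222 bases before the start of Lif. A wider kappaB motif, with any base at that position, was added after the data were seen and matched once, at 178 to 169 bases before the start of Lif. Of 32851 RefSeq windows of the same length, 6.75% held the AP-1 motif, 7.02% the STAT motif, 3.90% the kappaB motif and 7.25% its wider form. A match describes letters only, and the absence of one says nothing about a factor.

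With FTY720 and LPS, Osm stood far below its level with FTY720 alone and Lif far above its own. Il6st and Lifr were moderately higher, and Osmr and Il6ra overlapped between the groups. The values that follow are CPM scaled by TMM factors, with n = 3 per group and SD as error. Bulk RNA cannot tell fewer cells of a type apart from less RNA per cell, for these or any other genes here.

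Osm had 12.8, 9.37 and 5.54 CPM in the FTY720 and LPS libraries, against 97.1, 94.7 and 88.1 CPM in the FTY720 libraries. Every LPS library lay below every FTY720 library, and LPS replicate 1 held the most reads of its group. In reads these were 34, 22 and 11 with LPS and 289, 282 and 372 without it. The sums were 67 reads (exact Poisson 95% interval 51.9 to 85.1) and 943 reads (884 to 1005), so the low group still stood above the detection floor. The means were 9.22 ± 3.61 and 93.3 ± 4.64 CPM, a log2 fold change of -3.29 ± 0.19 (SE), or 9.77-fold lower with LPS. Among the 10124 tested genes this was the 9th lowest fold change, and the median of all genes was -0.04.

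Lif, which maintains stem cells in culture and acts on neurons and glia in the brain, showed the opposite arrangement. It had 42.0, 39.6 and 42.3 CPM with FTY720 and LPS, against 2.35, 4.03 and 3.32 CPM with FTY720. The LPS libraries lay close together and the groups did not overlap. The reads were 112, 93 and 84 with LPS and 7, 12 and 14 without. They summed to 289 (257 to 324) and 33 (22.7 to 46.3). The means were 41.3 ± 1.50 and 3.23 ± 0.843 CPM, a log2 fold change of 3.65 ± 0.23, or 12.6-fold higher with LPS. It was the 86th highest fold change. Lif passed the filter on low counts through the LPS group, since 3 LPS libraries but only 1 FTY720 library reached 3.62 CPM. The other 5 genes reached it in all 6 libraries.

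Il6st, which encodes the gp130 chain shared by the whole family, was the most abundant of the 4 receptor chains. Its CPM values were 105.1, 110.7 and 99.3 with FTY720 and LPS and 58.1, 62.8 and 54.0 with FTY720. All LPS libraries were above all FTY720 libraries. The means of 105.0 ± 5.73 and 58.3 ± 4.41 CPM gave a log2 fold change of 0.85 ± 0.13, or 1.81-fold. The values rest on 737 reads (685 to 792) with LPS and 588 (541 to 638) without it. The fold change was 0.55 and not called when total gene reads were the only scaling.

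Lifr, the LIF-binding chain, had 14.6, 13.6 and 16.1 CPM with FTY720 and LPS, against 8.06, 6.72 and 9.71 CPM with FTY720. The groups did not overlap, although 20 to 41 reads per library make the single values imprecise. Its log2 fold change was 0.83 ± 0.24, or 1.78-fold, from 103 reads (84.1 to 125) with LPS and 85 (67.9 to 105) without. With total gene reads as the only scaling it was 0.49 and not called, and it was 1.04 after cyclic loess scaling.

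Osmr, the chain that gives mouse oncostatin M its signal, was scarce in both groups. It had 6.01, 5.11 and 10.1 CPM with FTY720 and LPS, against 7.39, 5.38 and 6.40 CPM with FTY720, and the groups overlapped. LPS replicate 3 was the highest of the 6 libraries and LPS replicate 2 the lowest. The counts were 48 reads (35.4 to 63.6) and 65 reads (50.2 to 82.8), and the log2 fold change was 0.11 ± 0.32. Its sign was the same in 12 of 15 alternative analyses, which ranged from -0.21 to 0.38, so no direction can be given at this depth.

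Il6ra, which binds interleukin-6 itself, had 15.0, 17.9 and 19.7 CPM with FTY720 and LPS, against 24.2, 25.5 and 11.8 CPM with FTY720. The groups overlapped because FTY720 replicate 3 lay below all LPS libraries, while FTY720 replicates 1 and 2 lay above them. The log2 fold change was -0.20 ± 0.25, from 121 reads (100.4 to 145) and 198 reads (171 to 228). It was -0.52 without FTY720 replicate 3, where it was called lower, and 0.02 without FTY720 replicate 2. Both the sign and the call therefore depend on which FTY720 library is left out.

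**Figure D1:**
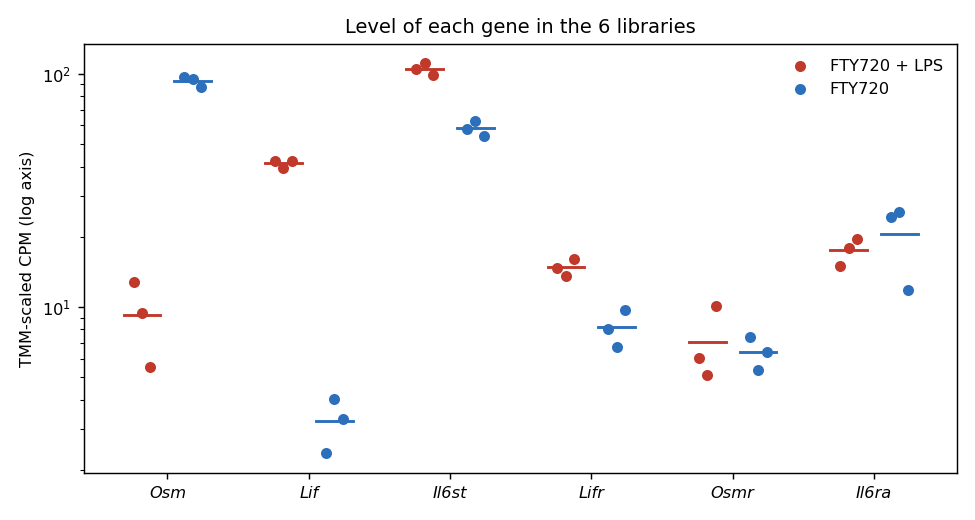
TMM-scaled CPM of the 6 genes on a log axis, with 1 point per library (red, FTY720 and LPS; blue, FTY720) and a bar at each group mean. Osm averaged 9.22 and 93.3 CPM and Lif 41.3 and 3.23 CPM, while the points of Osmr and Il6ra overlap between the groups.

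Of the 6 genes, 4 passed edgeR's threshold, 3 of them higher (Lif, Il6st, Lifr) and 1 lower (Osm). Over all tested genes 46.0% were called, 23.3% higher and 22.7% lower, and the groups did not overlap for 54.0%, so a call was common here. Since the genes were chosen from this comparison, nothing is read from their count. With total gene reads as the only scaling, 2 of the 6 were called. The full set of 10124 genes held 2362 higher and 2297 lower calls (50.7% higher). The balance moved with scaling: upper-quartile factors gave 1885 and 2969 (38.8% higher, median shifted by -0.13), and total gene reads alone 761 and 2684 (22.1%, shifted by -0.32). DESeq2, which also differs in its test and filter, gave 2043 and 1274 (61.6%), while its size factors in edgeR gave 2419 and 2222 (52.1%).

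**Figure D2:**
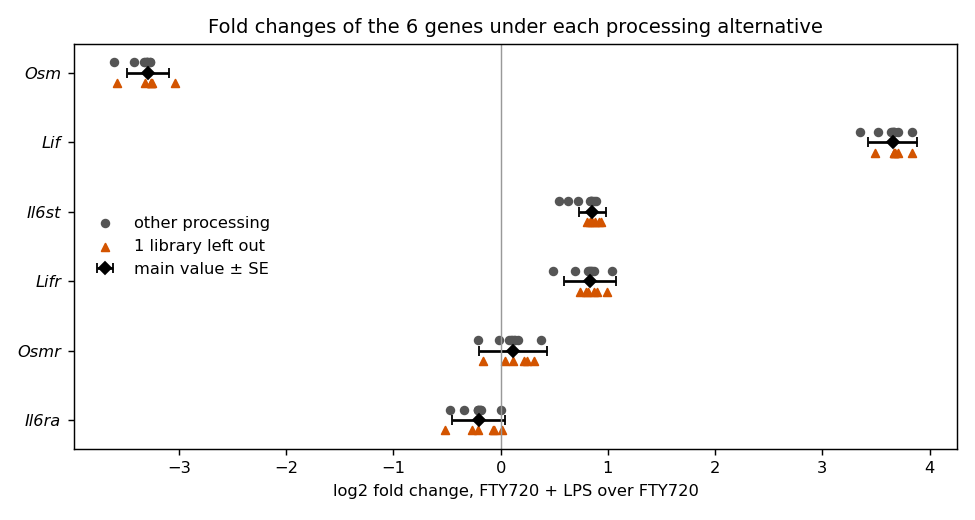
Log2 fold change (FTY720 and LPS over FTY720) of each gene in the main analysis (diamond, bar of 1 SE), under other processing (circles) and with 1 library left out (triangles). Osm stayed between -3.60 and -3.03 and Lif between 3.35 and 3.84, while Osmr and Il6ra lay on both sides of 0.

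Scaled for exon length, the 6 genes changed places between the groups. Levels per length are given as RPKM, the CPM value divided by the exon length in kilobases, which allows different genes to be set beside each other. With FTY720 and LPS, Lif averaged 9.50 ± 0.344 and Il6st 9.46 ± 0.516 RPKM, with overlapping libraries, and Osm came next at 4.06 ± 1.59 RPKM. Il6ra followed at 2.03 ± 0.271, Lifr at 1.37 ± 0.117 and Osmr at 0.583 ± 0.219 RPKM. With FTY720 alone the first place belonged to Osm, at 41.1 ± 2.04 RPKM. Il6st stood at 5.25 ± 0.397 and Il6ra at 2.37 ± 0.873 RPKM. Below them, every Lifr library (0.758 ± 0.139 RPKM) lay above every Osmr library (0.527 ± 0.0832 RPKM), and Lif (0.743 ± 0.194 RPKM) overlapped with both.

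Osm made up most of the summed level of the 6 genes with FTY720 alone, and Lif and Il6st together did so with LPS. It held 19.8%, 15.3% and 9.49% of the summed RPKM of the 6 genes in the LPS libraries, against 81.1%, 79.7% and 82.1% in the FTY720 libraries. The share of Lif was 34.1%, 33.8% and 37.8% with LPS and 1.03%, 1.77% and 1.61% without. The ratio of Lif to Osm per length was 1.72, 2.21 and 3.99 with LPS and 0.0127, 0.0222 and 0.0197 without, so the more abundant of the 2 ligands differed between the groups in every library. The sum of all 6 genes was 25.7 to 28.3 RPKM with LPS, below the 47.2 to 52.7 RPKM with FTY720.

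**Figure D3:**
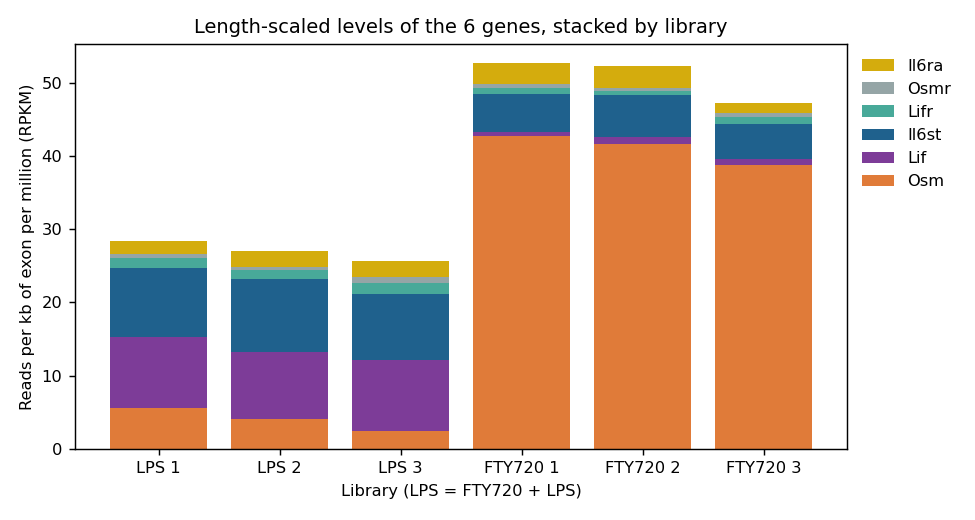
RPKM of the 6 genes, stacked for each library, with the 3 FTY720 and LPS libraries on the left and the 3 FTY720 libraries on the right. Osm fills 9.49% to 19.8% of the bars with LPS and 79.7% to 82.1% of the bars without.

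The shared chain outnumbered each ligand-binding chain in all 6 libraries. Per length, Il6st was 10.7 to 23.6 times Osmr with LPS and 8.58 to 12.8 times with FTY720. Against Lifr the ratio was 5.98 to 7.89 with LPS and 5.40 to 9.08 without, so these chains kept overlapping proportions. Against Il6ra it was 3.93 to 5.45 with LPS and 1.87 to 3.55 without, and these ranges did not overlap. The lengths of Osmr and Il6st depend on the annotated isoforms. With the longest transcript, Osmr was 1.29 RPKM with LPS and 1.16 RPKM with FTY720, and Il6st was 12.1 and 6.72 RPKM. On that scale Lifr had 0.846 RPKM with FTY720, below Osmr, so the order of these chains turns with the length used.

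The 3 prime untranslated regions were compared for AUUUA, a pentamer found in many unstable cytokine transcripts. Osm held 6 in 1017 bp, or 5.90 per kb, a density reached by 5.23% of 19161 genes with such a region of at least 100 bp. Lif held 7 in 3180 bp (2.20 per kb, reached by 33.7%). Among the receptor chains the density was lowest for Il6ra (1 in 1837 bp, 0.544 per kb) and highest for Osmr (4 in 1794 bp, 2.23 per kb). Only the letters were counted, and RNA stability was not measured.

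Tested genes upstream of Osm, the nearest of them 20915 bp away, had fold changes near 0, and no gene beyond Lif within 200 kb was tested. Of the tested genes within 200 kb, Rnf215 (a ubiquitin ligase gene), Ccdc157, Sf3a1 (a splicing factor) and Tbc1d10a had log2 fold changes of 0.01 ± 0.30, 0.04 ± 0.27, 0.08 ± 0.15 and -0.10 ± 0.18. None of these passed edgeR's quasi-likelihood test (Benjamini-Hochberg adjusted p from 0.676 to 0.973). Around all 6 genes 17 of 32 neighbours were tested, and 4 were higher and 4 lower, with a median of 0.04. Over all tested genes 23.3% were called higher and 22.7% lower, so calls near these genes were not unusual. Rictor, a subunit of the mTOR complex 2 that lies 13176 bp from Osmr, was higher (0.62 ± 0.14, edgeR adjusted p = 0.00104), a call lost with total gene reads alone (0.31, adjusted p = 0.428). Slc38a9, an amino acid transporter 150665 bp from Il6st, was lower (-1.07 ± 0.20, edgeR adjusted p = 0.000169).

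**Figure D4:**
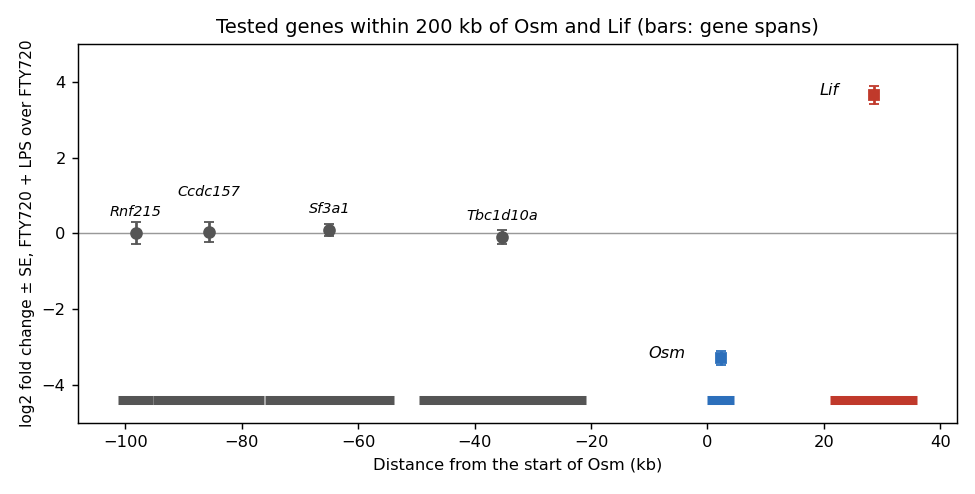
Log2 fold change with SE of the tested genes within 200 kb of Osm and Lif, by distance from the start of Osm in kb, with gene spans as bars along the bottom. The 4 upstream genes lie between -0.10 and 0.08, Osm at -3.29 and Lif at 3.65.

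The neighbourhood of Il6ra held the other 6 called neighbours, all at least 80059 bp away. Nup210l, a nucleoporin-like gene, had 49 reads with LPS and 7 with FTY720 (3.27 ± 0.49, edgeR adjusted p = 1.06e-05). It passed the filter on low counts through the LPS group, with 3, 3 and 1 reads in the FTY720 libraries. Chrnb2, a nicotinic receptor subunit, was lower (-1.47 ± 0.40, edgeR adjusted p = 0.00474), but not called without LPS replicate 2 (-1.05, adjusted p = 0.0513). Hax1 (0.47 ± 0.15) and Tpm3 (0.41 ± 0.16) were higher, and Ube2q1 (-0.43 ± 0.14) and 4632404H12Rik (-1.32 ± 0.50) lower. These 4 calls were lost under some other processing and without single libraries. Under other processing, Hax1 was not called with upper-quartile factors (0.34) or total gene reads alone (0.14). With DESeq2, Ube2q1, Tpm3 and 4632404H12Rik were not called. Hax1 was not called without LPS replicate 2 (0.43) or FTY720 replicate 1 (0.41), and Ube2q1 without LPS replicate 2 (-0.28) or FTY720 replicate 2 (-0.35). Tpm3 was called without FTY720 replicate 1 but not without any other library (0.32 to 0.45). For 4632404H12Rik the call was lost without LPS replicate 2 (-0.73), LPS replicate 3 (-1.45) or FTY720 replicate 1 (-1.14). Both 4632404H12Rik and Chrnb2 passed the filter on low counts through the FTY720 group.

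Among the other ligands of the family, Il6 was the one with a large difference. Il6, the inflammatory cytokine that signals through Il6ra and gp130, had 36.8, 38.3 and 45.9 CPM with FTY720 and LPS, against 0.336, 0 and 0.948 CPM with FTY720. The reads summed to 279 and 5, and the log2 fold change was 6.24 ± 0.36. Il6 and Ebi3 passed the filter on low counts through the LPS group. Ebi3, which pairs with other subunits to form interleukin-27 and interleukin-35, had a log2 fold change of 1.03 ± 0.35, on 41 and 29 reads. It was not called with DESeq2, with total gene reads alone or without LPS replicate 1 (0.98). Other cytokines entered the choice of Osm, so their values too are given with no test.

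The other 8 ligand genes were not called, although 1 gene of the list was called lower in 7 of 15 alternatives. Il11 had 28 reads with LPS and 75 with FTY720 (-0.89 ± 0.37) and lay just outside the threshold. Its values were 4.50, 2.98 and 4.53 CPM with LPS and 5.38, 11.4 and 5.92 CPM with FTY720, without overlap. Clcf1 (0.12 ± 0.35) lay near 0. Il27, Ctf1, Ctf2, Cntf and Il31 had at most 3 reads in a group and were not tested. The family's ligands were thus represented mainly by Lif, Il6 and Osm with LPS, and by Osm with FTY720 alone. None of the 5 other receptor chains was tested, and they held 24 reads with LPS and 35 with FTY720 in all. Il11ra1 had 12 and 16 reads, Cntfr 2 and 14, Il27ra 6 and 3, Il31ra 4 and 2, and Il11ra2 0 in both groups.

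Of 10 tested Janus kinases and STATs, 5 were higher, 3 lower and 2 not called, and the median log2 fold change was 0.31 (-0.04 over all genes tested). The counts in this and the later lists stand beside 23.3% higher and 22.7% lower over all genes tested. Jak2, one of the kinases bound to gp130, averaged 265 ± 23.1 CPM with FTY720 and LPS and 55.2 ± 7.98 CPM with FTY720 (2.26 ± 0.13, edgeR adjusted p = 9.33e-13). Stat2, which carries interferon signals, was higher too (1.86 ± 0.15, edgeR adjusted p = 6.35e-10). Jak1 (0.54 ± 0.11) and Stat5a (1.36 ± 0.22) were also higher, and Tyk2 (-0.75 ± 0.18), Stat5b (-0.80 ± 0.18) and Stat6 (-0.98 ± 0.14) were lower. Stat3, the main STAT downstream of gp130, had 158 ± 7.31 and 149 ± 2.37 CPM, and its log2 fold change of 0.08 ± 0.11 did not pass (edgeR adjusted p = 0.570).

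Of 19 tested genes of the SHP2, MAP kinase and PI3 kinase branch, 6 were higher, 6 lower and 7 not called. Their median was 0.15. The 2 directions were also balanced over all tested genes (23.3% higher and 22.7% lower). Map2k1, which encodes the kinase MEK1, rose by 1.35 ± 0.12 (edgeR adjusted p = 1.46e-09), and Pik3r1, the regulatory subunit of PI3 kinase, by 1.27 ± 0.12 (edgeR adjusted p = 9.55e-09). Gab1, an adaptor recruited to gp130 signalling, was lower (-0.93 ± 0.21, edgeR adjusted p = 0.000881). Ptpn11, which encodes SHP2 itself, was at 0.00 ± 0.17. With total gene reads alone 2 of the 19 were higher.

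Inhibitors that act back on cytokine receptors included Socs3 and Socs1, both over 10-fold higher with LPS. Of 13 tested, 6 were higher, 3 lower and 4 not called, with a median of 0.28. Socs3, the inhibitor that binds gp130, had 160, 151 and 163 CPM with FTY720 and LPS, against 6.05, 3.70 and 3.08 CPM with FTY720. This was a log2 fold change of 5.23 ± 0.19 (edgeR adjusted p = 1.70e-16). Socs1, an inhibitor of Janus kinases, had 44.3, 37.5 and 48.4 CPM with LPS and 1.34, 4.03 and 2.13 CPM without it (4.11 ± 0.27, edgeR adjusted p = 1.11e-11). Socs1 passed the filter on low counts through the LPS group, with 4, 12 and 9 reads in the FTY720 libraries. Ptpn6, which encodes the phosphatase SHP1, was lower (-1.12 ± 0.19, edgeR adjusted p = 4.83e-05). Cish, a target of STAT5, had 51 and 16 reads and was not tested. Only 3 of the 13 were higher with total gene reads alone.

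Genes known to respond to STAT3 were higher in 9 of 17 tested cases and lower in 4, with a median of 0.77. The largest were Socs3, Ccl2 (4.76 ± 0.15), a monocyte-attracting chemokine, and Pim1 (4.20 ± 0.13, edgeR adjusted p = 4.93e-18), a survival kinase. The lower ones were Serpina3n (-0.57 ± 0.18), Bcl2l1 (-0.89 ± 0.36), Vegfa (-0.58 ± 0.15) and Hif1a (-0.35 ± 0.12), and 1 gene of the list was called lower with DESeq2 or without LPS replicate 1, and 2 without LPS replicate 3. Bcl2l1 passed the filter on low counts through the FTY720 group. Many genes of this list are also known to respond to NF-kappaB, and STAT3 activity was not measured.

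The list of genes known to respond to STAT5 holds Osm itself. Of 8 tested, 1 was higher (Pim1) and 4 were lower, Osm included, with a median of -0.51. Besides Osm these were Bcl6, a transcriptional repressor (-1.86 ± 0.41, edgeR adjusted p = 0.000807), Bcl2l1, which encodes the survival protein Bcl-xL, and Id1, an inhibitor of differentiation (-0.73 ± 0.18, edgeR adjusted p = 0.00228). Bcl6 and Bcl2l1 passed the filter on low counts through the FTY720 group. Socs2 (-0.06 ± 0.32), Ccnd1 (-0.28 ± 0.27) and Ccnd2 (0.18 ± 0.24) were not called. Cish was not tested, but every LPS library lay above every FTY720 library (means 7.14 and 1.53 CPM, 51 and 16 reads). Il2ra, with 4 and 1 reads, was not tested either. In 6 of the alternatives 2 genes were higher, among them those without LPS replicate 3 and without any single FTY720 library. The list was put together with the value of Osm known. Osm, chosen for being lower, also enters the count of lower genes and the median, so neither is read as a result.

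**Figure D5:**
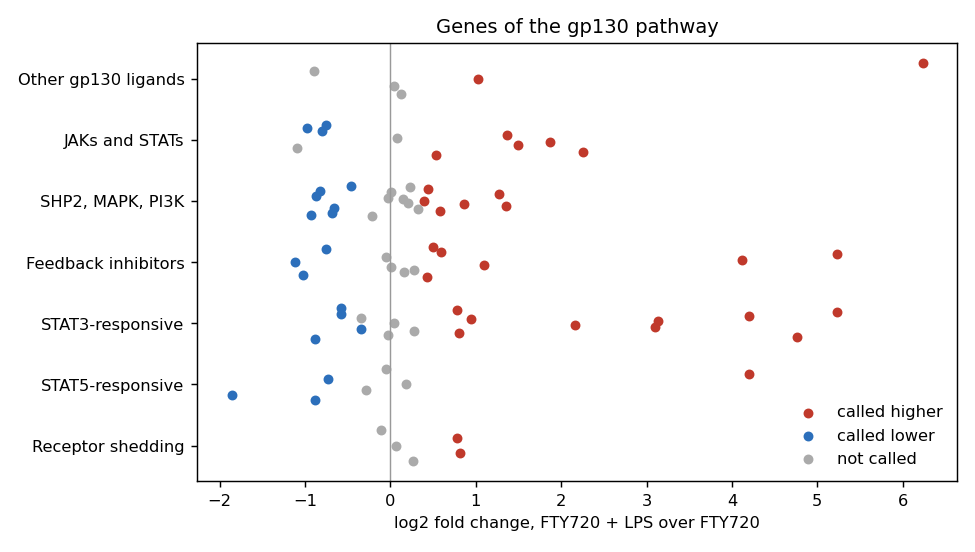
Log2 fold change (FTY720 and LPS over FTY720) of each tested pathway gene other than Osm, by list, with called genes in red (higher) or blue (lower) and the rest in grey. Il6 at 6.24, Socs3 at 5.23 and Socs1 at 4.11 lie far to the right, and Bcl6 at -1.86 lies farthest to the left.

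Receptor shedding releases the soluble form of Il6ra, and Adam17 is the protease best known for it. Adam17 was higher (0.82 ± 0.13, edgeR adjusted p = 1.41e-05), as was Rhbdf2 (0.78 ± 0.15, edgeR adjusted p = 0.000135), which escorts the protease to the cell surface. Both calls were lost with total gene reads alone (0.53, adjusted p = 0.145, and 0.49, adjusted p = 0.185). The other 3 genes of the list, Adam10, Rhbdf1 and Timp3, were not called.

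Set among cytokine genes of activated macrophages, Osm was 1 of 2 that were lower. Of 18 tested, 14 were higher, with a median of 1.31, and the lower ones were Osm and Vegfa. The higher ones included Lif, and also Il6 and Ebi3, which are among the gp130 ligands above. Il12b, which encodes the shared subunit of interleukin-12 and interleukin-23, counted 764 reads with LPS and 1 with FTY720, and Csf2, which encodes GM-CSF, had 388 and 1. Both passed the filter on low counts through the LPS group. Il1b had 16093 and 187 reads (6.95 ± 0.15). Il1rn (0.19 ± 0.20) and Il18 (0.77 ± 0.33) were not called. Since this contrast is why Osm was chosen, the count describes the choice.

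The genes with the profile most like that of Osm were searched over the 6 libraries among 9800 genes. Likeness was the Euclidean distance between log2 CPM values, each centred on its own mean. Fbxo32 was nearest at 0.540, followed by Il16 (0.561), Tifab (0.665), Gpr157 (0.844) and Bhlhe41 (0.867). Their log2 fold changes lay between -3.97 and -2.82. The genes most like Lif were Irgm2 (0.377), Ehd1 (0.384) and C5ar1 (0.456), with fold changes of 3.30 to 3.76.

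The receptor chains had closer matches. For Lifr these included Rheb (0.0744) and Dcun1d5 (0.0922), and for Il6st they were Mfsd7b (0.0911), Ctr9 (0.116) and Ogfr (0.134). Osmr lay nearest to Nagpa (0.264), Sft2d1 (0.273) and Nudt10 (0.297). Il6ra lay nearest to Eif4g3 (0.124), Nfix (0.174) and Csf1r (0.196). Csf1r, the receptor for colony-stimulating factor 1 and a microglial marker, had 215, 263 and 271 CPM with FTY720 and LPS, against 309, 353 and 186 CPM with FTY720. Like Il6ra, it was lowest in FTY720 replicate 3. Distances of this kind mainly follow the size of the group difference and the depth of a gene.

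Markers of microglia were abundant in every library, and those of other brain cells were present at lower levels. The 10 microglial markers summed to 3231 to 3777 CPM with FTY720 and LPS and 2170 to 2310 CPM with FTY720. Of the 9 tested, 8 were higher, among them Aif1 (1.20 ± 0.35), Cx3cr1 (1.10 ± 0.18) and C1qa (0.89 ± 0.11), and Csf1r was not called. The call of Aif1 was lost without LPS replicate 1 (1.08, adjusted p = 0.0521) and with DESeq2 (adjusted p = 0.0791), and 1 marker was lower without FTY720 replicate 3. With total gene reads alone 1 of the 9 was higher, and after cyclic loess scaling 4 were higher and 1 lower. C1qa lost its call in both, at 0.56 (edgeR adjusted p = 0.128) and 0.17 (limma adjusted p = 0.145). Aif1 passed the filter on low counts through the LPS group. Tmem119, a microglial marker, had 11 and 8 reads. The fold changes of Il6st (0.85) and Lifr (0.83) lay within the range of the called markers (0.57 to 1.20), and the part of the markers in them was not tested.

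Markers of oligodendrocyte lineage and neurons moved with the groups in the same direction as Osm. The 8 oligodendrocyte lineage markers summed to 143 to 164 CPM with LPS and 270 to 295 CPM with FTY720, and 5 of 6 tested were lower. Olig2 had 18 and 146 reads (-2.47 ± 0.31), Sox10 7 and 49 (-2.24 ± 0.51), and Olig1 137 and 379 (-0.92 ± 0.17). Olig2 and Sox10 passed the filter on low counts through the FTY720 group. The 6 neuronal markers summed to 98.3 to 110 CPM with LPS and 181 to 243 CPM with FTY720, and all 3 tested, Dcx (-1.16 ± 0.16), Map2 (-0.93 ± 0.17) and Tubb3 (-0.49 ± 0.16), were lower. The call of Tubb3 was lost with DESeq2 and without LPS replicate 1 (-0.46) or 2 (-0.42). The summed levels of both lists differed by less than Osm did, and their part in its values was not tested.

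Astrocytes are the glia in which oncostatin M receptor is best known, and their markers were divided. The 8 markers summed to 107.7 to 147 CPM with FTY720 and LPS and 95.4 to 114 CPM with FTY720. Of 7 tested, Gja1 (1.22 ± 0.23) and Aqp4 (1.03 ± 0.20) were higher, Slc1a2 (-1.30 ± 0.24) was lower and 4, Gfap among them, were not called, and without FTY720 replicate 3 the lower markers were 2. The call of Aqp4 was lost with total gene reads alone (0.68, adjusted p = 0.0616). Fibroblast, mural and endothelial markers summed to 29.0 to 49.9 CPM with LPS and 23.2 to 44.0 CPM with FTY720, and none of 4 tested was called. Col3a1 was called higher without FTY720 replicate 2 (1.12), and Dcn without FTY720 replicate 3 (0.79). The part of these cells in the reads of Osmr and Lifr was not tested.

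Neutrophils and mast cells, further known sources of oncostatin M or bearers of its receptors, left few reads. The neutrophil markers summed to 6.39 to 9.57 CPM with FTY720 and LPS and 0.672 to 3.55 CPM with FTY720. S100a9 had 0 reads in all 6 libraries and Mpo 21 and 1 reads. S100a8 had 32 and 21 reads (1.15 ± 0.45, edgeR adjusted p = 0.0418), a call lost in 8 of the alternatives. FTY720 replicate 3 was the only library that could be left out without losing it, and the other values lay between 0.83 and 1.27. T cell and mast cell markers summed to 6.38 to 11.1 CPM with LPS and 12.8 to 16.1 CPM with FTY720. Kit had 25 and 115 reads (-1.66 ± 0.31, edgeR adjusted p = 0.000144). It passed the filter on low counts through the FTY720 group, and S100a8 through the LPS group. Cd4 had 32 and 31 reads. Mcpt4 had 0 reads, Cpa3 1 and 0, Cd3e 0 and 1, and Cd8a 1 in each group. The part of such cells in the values of Osm was not tested.

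Reads on the strand opposite to each gene were few. They numbered 1 with LPS and 7 with FTY720 for Osm and 6 and 0 for Lif. For the receptor chains they ranged from 2 to 10 per group. The sense strand carried 98.4% to 98.9% of all gene reads. An antisense gene, Gm42809, is annotated over the start of Il6ra and is not counted separately here.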

How the data were processed

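RNA-seq was performed on 6 samples of primary mouse microglia. Per the labels' protocols, total RNA was depleted of ribosomal RNA and made into directional, randomly primed libraries for an Illumina HiSeq2000. Raw counts per gene and strand were deposited for each library. The tools in the submitters' processing notes are STAR 2.5.1, Trimmomatic 0.33, CASAVA 1.8.2 and DESeq2, with the genome build mm10. The gene annotation and settings were not given in the sources used here. Sense-strand counts were used. Rows naming no gene were left out (unmapped 24.4% to 27.0%, multimapping 7.69% to 8.15%, outside genes 42.2% to 44.5% and ambiguous 0.0748% to 0.114% of listed reads).

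Counts were fitted across all genes with edgeR 4.0.16 in R 4.3.3 (TMM factors, quasi-likelihood test, filterByExpr with a minimum count of 10), and p-values were adjusted by Benjamini-Hochberg over 10124 genes at a threshold of 0.05. The filter kept a gene that reached 3.62 CPM, before TMM scaling, in 3 libraries, so a gene could pass through 1 group alone. SE was taken as the size of the log2 fold change over the root of F. log2 CPM used a prior count of 2. Alternatives used DESeq2 1.42.0 and limma 3.58.1 (voom with cyclic loess), other scaling, no filter, unstranded counts, the replicate number as a block, and each library left out. The fit was tested on simulated data. Positions, exon lengths and untranslated regions came from GENCODE M21 on GRCm38 (also called mm10), and upstream sequences from RefSeq on GRCm38.p6.

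The genes and lists were chosen with earlier results of these data known. Genes named were the 6, from each list the 3 called genes that changed most at a mean log2 CPM of 1 or more (the 2 most abundant where none was called), the nearest profiles, and called neighbours within 200 kb. Others were named after their values were seen, to complete small counts or because of their role. A few genes that this rule names are not reported here.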

Additional observations from a re-analysis of the deposited data

How the results depend on the processing

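Osm and Lif kept their direction in all 15 alternatives, at -3.60 to -3.03 and 3.35 to 3.84, and with 1 library left out at -3.58 to -3.03 and 3.49 to 3.83. With total gene reads alone Lif was 3.35, Lifr 0.49 and Il6st 0.55, and the called genes were 761 higher. Upper-quartile factors gave 0.72 for Il6st, and voom with cyclic loess gave 1.04 for Lifr and 0.63 for Il6st. DESeq2 called 1274 genes lower. The cause of these shifts was not tested. Leaving out 1 library gave 2043 to 2722 genes higher and 1702 to 2495 lower, Lifr 0.74 to 0.99, Il6st 0.80 to 0.93, Osmr -0.17 to 0.31 and Il6ra -0.52 to 0.02. With the replicate number as a block 2292 genes were higher and 2174 lower. Same-numbered libraries correlated at -0.02, -0.03 and -0.07 in their deviations from the group means. With 3 libraries per group, such values cannot decide whether the numbers pair the samples. For the named list genes and neighbours, 593 of the recomputed values stayed on their side of the threshold, 47 lost the call and 3 gained one. The 65 reads of Osmr and 33 of Lif with FTY720 alone limit their precision.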
